A study of Mus musculus with 6 samples.

Results

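Oxidative phosphorylation genes were taken from the array by symbol: those that begin with Nduf, Uqcr or Atp5, the succinate dehydrogenase genes Sdha to Sdhd, and the numbered Cox subunit genes. This rule found 80 of the 19661 genes measured, each represented by 1 probe set. They comprised 32 subunits of complex I, 7 assembly factors of complex I (the Ndufaf genes), 4 subunits of complex II, 7 of complex III, 17 of complex IV and 12 of complex V. Ndufa4 was counted with complex IV, where its product is now placed, and its relative Ndufa4l2 with no complex. RNA came from megakaryocyte-erythroid progenitors of mouse bone marrow, which give rise to red cells and platelets, sorted as Kit-positive cells without lineage markers, Sca1 or CD34 and with low FcγRII/III. The samples compared were 3 Fog1+/+ and 3 Fog1ki/ki arrays, all of strain B6.129, described as biological replicates. The labels give neither the age of the mice, nor how many animals each sample held, nor what the homozygous Fog1 knock-in changes. FOG1, which Zfpm1 encodes, works as a partner of the erythroid transcription factor GATA1, and knock-in mice of this kind are known for a FOG1 that does not bind the NuRD chromatin complex.

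Oxidative phosphorylation is the process by which mitochondria make ATP. Complexes I and II pass electrons from NADH and succinate to ubiquinone, complex III passes them to cytochrome c, and complex IV passes them to oxygen. Complexes I, III and IV pump protons across the inner membrane, and complex V, the ATP synthase, makes ATP as the protons return. Most subunits are encoded in the nucleus, and a smaller set in mitochondrial DNA, which was not analysed here. Erythroid cells depend on mitochondria for haem synthesis before they lose them at the end of maturation.

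Nuclear genes of this system are known to be regulated through NRF1, the ETS factor GABPA and YY1, so the promoters of members with low p-values were inspected. RefSeq promoter windows on GRCm38.p6, which run from 250 bases before to 50 bases after a gene's start, were found for 65 of the 80 members by gene identifier. The stretches below lie immediately upstream of the starts of 4 members and are read in the direction of the gene. They show both complex II genes whose start lies close to that of an oppositely oriented neighbour, and the complex I genes Ndufaf2 and Ndufs4, which had the smallest p-values of all members. The first 3 are cut where the transcript of the neighbour begins. Capitals mark matches to the motifs named in the next paragraph.
Sdhd: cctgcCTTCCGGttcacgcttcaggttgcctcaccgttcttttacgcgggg
Sdha: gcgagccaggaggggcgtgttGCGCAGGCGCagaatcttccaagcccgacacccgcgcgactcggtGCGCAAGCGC
Ndufaf2: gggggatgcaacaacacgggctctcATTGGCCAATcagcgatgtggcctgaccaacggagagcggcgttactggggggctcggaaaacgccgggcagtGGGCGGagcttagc
Ndufs4: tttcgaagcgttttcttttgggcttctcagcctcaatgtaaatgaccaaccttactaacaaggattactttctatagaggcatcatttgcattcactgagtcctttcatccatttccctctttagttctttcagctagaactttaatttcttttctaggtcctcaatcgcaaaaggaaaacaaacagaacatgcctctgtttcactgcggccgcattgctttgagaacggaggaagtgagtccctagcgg

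The Sdhd stretch lies at chr9:50603850-50603900, that of Sdha at chr13:74350241-74350316, that of Ndufaf2 at chr13:108158626-108158737 and that of Ndufs4 at chr13:114388095-114388344, all on the minus strand of GRCm38.p6. Each motif was searched on both strands. The Sdhd stretch held an ETS site (CCGGAAG) that begins 46 bases before the start. The Sdha stretch held NRF1 sites (GCGCA, any base, then GCGC) that begin 55 and 10 bases before the start, and Ndufaf2 held adjacent CCAAT boxes (CCAAT), 1 on each strand, and a GC box (GGGCGG). The Ndufs4 stretch held none of the 6 motifs searched, which also included a YY1 site (AANATGGC) and 4 forms of the GATA site: AGATAA as the first, AGATAG as the next, TGATAA after that, TGATAG as the last. A YY1 match of Ndufs4 lies among the bases after its start.

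NRF1 and YY1 letters were more frequent in the members' promoter windows than in all windows. The NRF1 letters stood in 17 of 70 member windows (24.3%), against 6.84% of the windows of all genes tested and 4.60% of all 32851 windows. The YY1 letters stood in 25.7% of member windows, against 6.51% and 6.05%. ETS letters stood in 14 of the 70, against 11.9% and 8.86%. The GATA letters stood in 25.7% of member windows, close to the 24.5% and 29.8% of the other windows, as did the CCAAT box (41.4% against 37.4% in both). The GC box was found in 42.9% of member windows, against 49.2% of the windows of genes tested and 35.7% of all windows. These matches are descriptions of letters and not of bound sites. The median log2 difference between genotypes was -0.10 over the 16 members with NRF1 letters and -0.09 over the 49 without them. It was -0.09 over the 18 members with GATA letters and -0.09 over the 47 without them. For YY1 letters it was -0.045 with and -0.11 without. For the GC box it was -0.133 with and -0.077 without, and for ETS letters -0.12 and -0.083. For the CCAAT box it was -0.083 with and -0.107 without.

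None of the 80 members passed the comparison of genotypes (0 higher and 0 lower in limma at a Benjamini-Hochberg adjusted p under 0.05), while 0.773% of all genes passed, 0.397% with lower and 0.376% with higher values. At an unadjusted p under 0.05, 8 members had lower and 0 had higher values in Fog1ki/ki, against 4.58% and 4.99% of all genes, or 9.57% in either direction. Differences are given on the log2 scale of the RMA values, Fog1ki/ki minus Fog1+/+. Negative differences were measured in 63 of the 80 members and in 42.8% of all genes. The members' median difference was -0.08, with a range of -0.34 to 0.25, and the median of all genes was 0.02. In 18 members the Fog1ki/ki arrays all lay below the Fog1+/+ arrays, against 6.53% of all genes, and in 1 they all lay above, against 8.31%. The members' median turned to -0.014 when quantile normalization of the arrays was repeated.

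Among strongly measured genes, the members and all genes had differences of similar size. Of all genes, 1205 had a mean over the 6 arrays of at least 10, a level chosen after the values were seen, and 53 members were among them. These 1205 genes had a median difference of -0.08, 77.8% of them had negative differences, and in 23.7% the Fog1ki/ki arrays all lay below the Fog1+/+ arrays. For the 53 members the corresponding values were -0.10, 86.8% and 26.4%. At an unadjusted p under 0.05 in limma, 125 of the 1205 genes were lower and 16 higher. Of the 53 members 5 were lower and 0 higher. Repeated quantile normalization moved the median of the 1205 genes to -0.002. The 19 members with a mean of 8 to 10 had a median difference of -0.09, against -0.063 for all genes at that level. Negative differences were measured in 78.9% of these members, against 65.4%, and all Fog1ki/ki arrays lay below in 21.1%, against 15.1%. Whether normalization or genotype accounts for the common displacement of strongly measured genes was not tested.

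The precision of the arrays bounds the differences. The 95% interval of the difference, from the limma fit and not adjusted for the number of genes, stayed within a 2-fold change in either direction for 80 of 80 members. It stayed within 1.5-fold for 78 members. The lowest bound, -0.71, belonged to the assembly factor Ndufaf6 and the highest, 0.50, to the complex I subunit Ndufa3. The median half-width of the intervals was 0.22. RMA compresses differences of dim probe sets, and members can share sequence with processed pseudogenes, which the array values do not separate.

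**Figure D1:**
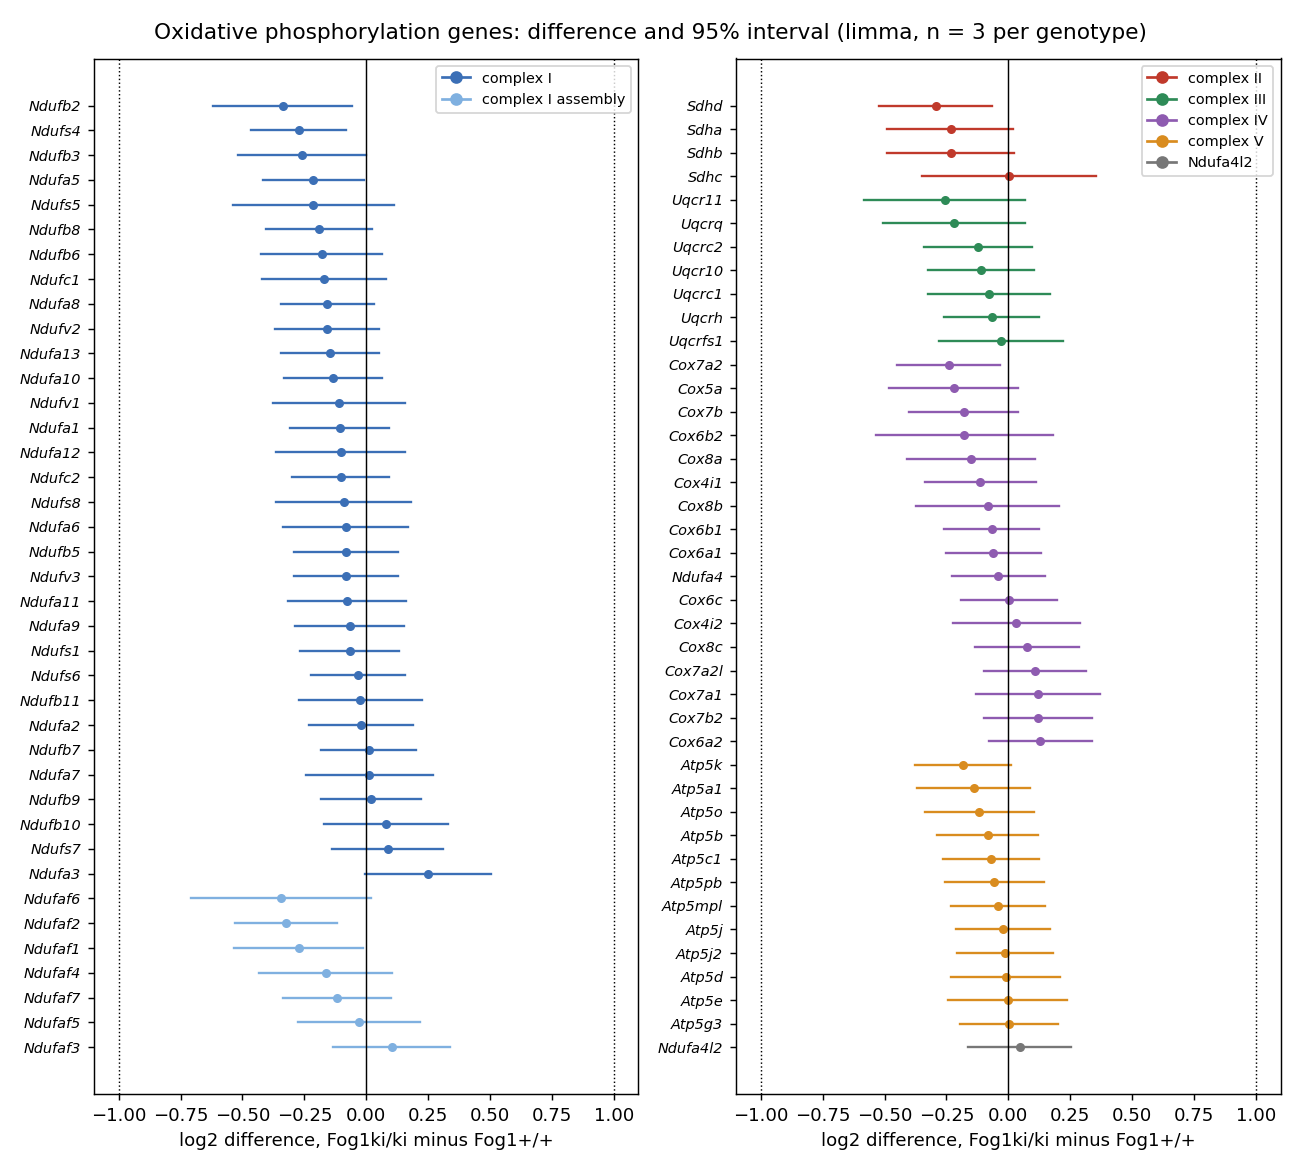
Log2 difference between Fog1ki/ki and Fog1+/+ (horizontal axis) for each of the 80 genes (rows), coloured by complex, with points for the estimate and lines for the 95% interval from limma (n = 3 per genotype). Dotted lines mark a 2-fold change, and every interval lies between them.

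**Figure D2:**
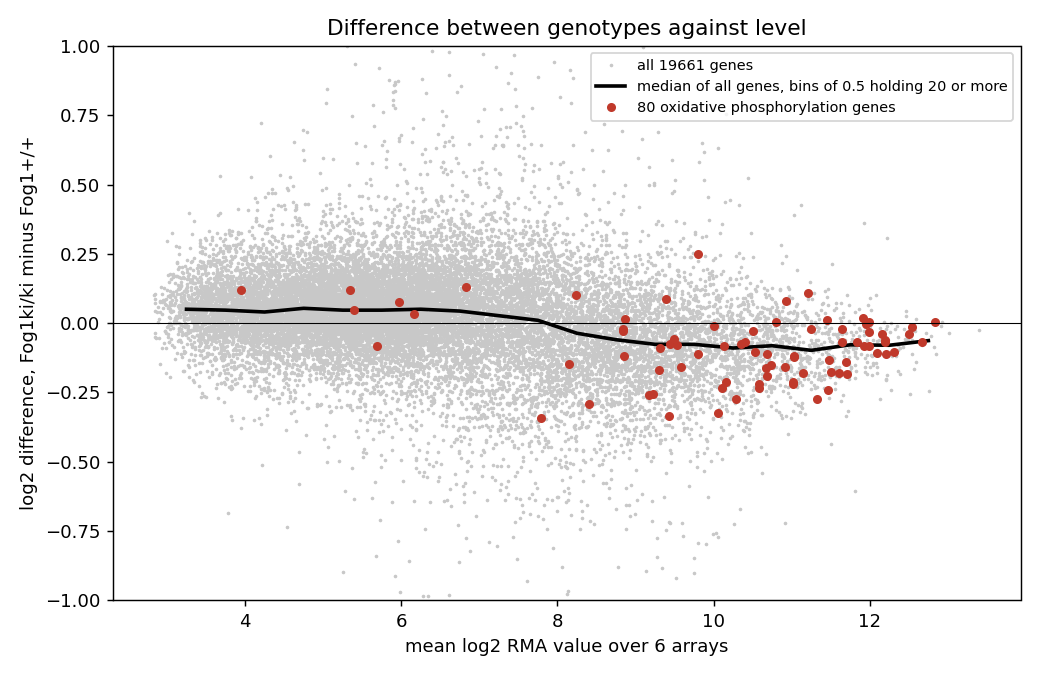
Log2 difference between Fog1ki/ki and Fog1+/+ (vertical axis) against the mean log2 RMA value over the 6 arrays (horizontal axis) for all 19661 genes in grey and the 80 oxidative phosphorylation genes in red, with 94 genes beyond the vertical range. The black line, the median of all genes by level, lies below 0 at the high levels where most members lie; repeated quantile normalization brought the median of genes at 10 or above to -0.002.

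The arrays and the cells were also checked. Medians over all genes lay between 6.16 and 6.31. The 9 markers of the erythroid and megakaryocyte lineages had means above the array medians in both genotypes, and 0 of them passed limma's test. Kit, also a sorting marker, differed by -0.38, Gata1 by -0.29, Epor by -0.07 and Klf1 by -0.03. Nfe2 differed by 0.33, Itga2b by 0.31, Gfi1b by 0.24 and Tal1 by 0.14. The Fog1ki/ki arrays all lay below for Kit and Gata1, against 6.53% of all genes. They all lay above for Nfe2, Itga2b and Tal1, against 8.31% of all genes. Zfpm1 itself differed by 0.05 (SE 0.13, limma adjusted p = 0.948), which does not check the genotype labels, since a knock-in need not alter its own transcript level. Of 5 granulocyte-macrophage markers 4 lay below the array medians, as did both macrophage markers, and 0 of these passed, nor did any of 3 lymphoid and 3 muscle markers. Of 7 mast cell and basophil markers 1 passed, Ms4a2, the beta chain of the IgE receptor. The mean of these 7 ran from 5.14 to 5.22 over the Fog1+/+ arrays and from 5.83 to 6.72 over the Fog1ki/ki arrays. The markers differed unequally, with Ms4a2 at 3.79, Fcer1a at 1.91, Mcpt8 at 1.03 and Cpa3 at 0.53. Prss34 was at 0.13, Tpsb2 at 0.07 and Hdc at 0.06. The part of these markers in the members' values was not tested. In sorted cells, fewer cells of a kind and less RNA per cell cannot be told apart. Replicate 3 of each genotype differs from the other arrays in Y-linked transcripts, and without both of them the members' median difference was -0.075. No member passed in that fit. This says little, since none passed with all arrays and the genes called fell from 152 to 24.

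Complex I, the NADH dehydrogenase, is the largest respiratory complex, with a core that carries the flavin and iron-sulphur clusters and a shell of accessory subunits. Of its 32 subunits, 26 had negative differences (median -0.10, or -0.014 with quantile normalization repeated), and none passed. The 5 core subunits had differences between -0.16 and 0.09, and in none of them did the genotypes separate. Ndufv1, which binds the flavin and NADH, measured 9.82, 9.85 and 9.88 in Fog1+/+ and 9.81, 9.50 and 9.91 in Fog1ki/ki. Its Fog1ki/ki arrays thus enclosed the Fog1+/+ arrays, with replicate 2 as the low one. In the accessory subunits the Fog1ki/ki arrays all lay below in 9 of 27, against 6.53% of all genes and 23.7% of the genes at 10 or above.

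Ndufs4, an accessory subunit beside the NADH-binding module whose loss causes Leigh syndrome, had the smallest p among the subunits. It measured 11.45, 11.47 and 11.47 in Fog1+/+ and 11.19, 11.24 and 11.14 in Fog1ki/ki. All 3 Fog1ki/ki arrays were lower, by more than the spread within either genotype. Over all genes the log2 difference of -0.27 was not called (SE 0.09, limma adjusted p = 0.296). In the alternative settings it stayed between -0.33 and -0.19, with adjusted p from 0.0919 to 0.858. Ndufb2, in the membrane arm, had the most negative value of the subunits, -0.34 (SE 0.12, limma adjusted p = 0.402). It measured 9.64, 9.67 and 9.50 in Fog1+/+ and 9.52, 9.14 and 9.14 in Fog1ki/ki, where replicate 1 lay inside the Fog1+/+ range.

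Other accessory subunits differed less or overlapped. Ndufa5, of the peripheral arm, measured 11.08, 11.12 and 11.18 in Fog1+/+ and 10.83, 10.99 and 10.92 in Fog1ki/ki, so that the genotypes did not overlap (log2 difference -0.21). Ndufb3 measured 9.26, 9.24 and 9.40 in Fog1+/+ and 9.08, 9.20 and 8.84 in Fog1ki/ki, also without overlap (-0.26). Ndufa8, with the least spread of these, measured 9.68, 9.65 and 9.64 in Fog1+/+ and 9.47, 9.53 and 9.50 in Fog1ki/ki (-0.16). None of these differences passed (limma adjusted p from 0.496 for Ndufa5 to 0.618 for Ndufa8). Ndufc2, which had the highest mean of the complex I subunits, had a difference of -0.10 (SE 0.09, limma adjusted p = 0.776).

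Ndufa3, a small accessory subunit of the membrane arm, differed from most members in sign. It measured 9.66, 9.59 and 9.77 in Fog1+/+ and 9.98, 9.73 and 10.06 in Fog1ki/ki, with replicate 2 inside the Fog1+/+ range. Its log2 difference, 0.25 (SE 0.11, limma adjusted p = 0.533), was the largest positive one among the 80 members. Ndufs7, a core iron-sulphur subunit, and Ndufb10 had positive differences of 0.09 and 0.08, and neither passed. Ndufc1 was the 1 member with several probe sets, and the dimmer of the pair had a difference of -0.017 against -0.17 for the brighter.

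The 7 assembly factors of complex I, which help to build the complex and are not part of it, had a median difference of -0.16. That median was -0.087 without Fog1+/+ replicate 3, -0.050 without both replicates 3 and -0.078 with quantile normalization repeated. Ndufaf2, a relative of the subunit Ndufa12 that acts late in assembly, had the smallest p of all members. It measured 10.18, 10.23 and 10.23 in Fog1+/+ and 9.82, 10 and 9.85 in Fog1ki/ki. The genotypes did not overlap, but the gene was not called (log2 difference -0.32, SE 0.09, limma adjusted p = 0.233). Ercc8, a DNA repair gene whose start lies 113 bases away on the opposite strand, had a difference of -0.09 (SE 0.14).

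Ndufaf1, an assembly factor of the membrane arm, measured 10.30, 10.36 and 10.63 in Fog1+/+ and 10.10, 10.09 and 10.28 in Fog1ki/ki. The genotypes were separated by only a small gap, between Fog1+/+ replicate 1 and Fog1ki/ki replicate 3 (log2 difference -0.27, SE 0.12, limma adjusted p = 0.493). Ndufaf6 had the most negative difference of all members, -0.34 (SE 0.16, limma adjusted p = 0.559). It measured 7.98, 7.91 and 8.01 in Fog1+/+ and 7.65, 7.96 and 7.26 in Fog1ki/ki, a range of 0.70 among the Fog1ki/ki arrays that was the widest of any member. Ndufaf3 alone of the 7 had a positive difference, 0.10.

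**Figure D3:**
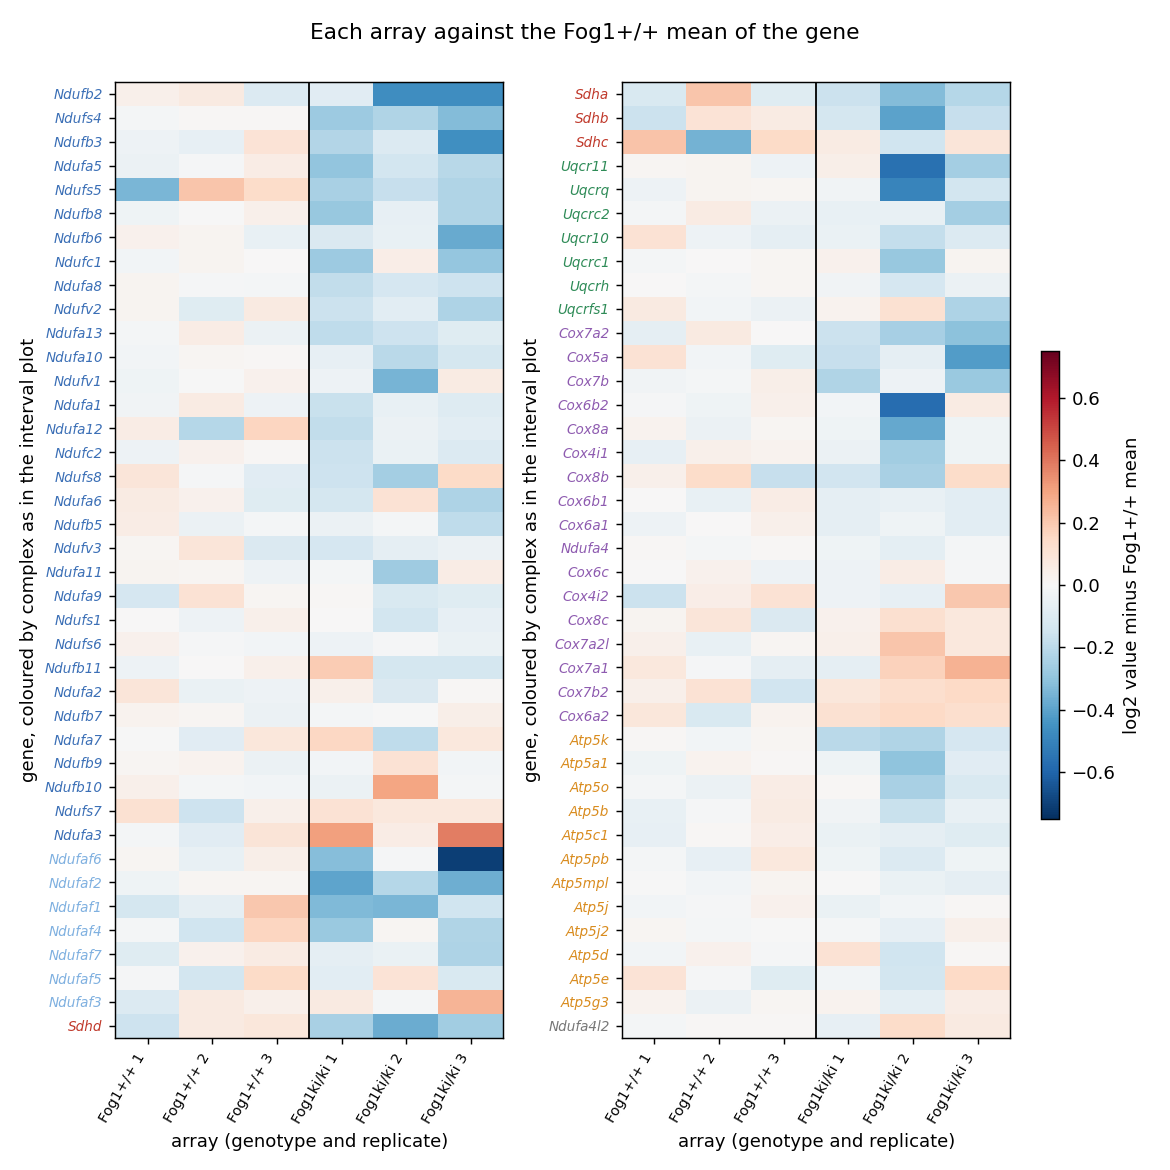
Value on each of the 6 arrays (columns) minus the Fog1+/+ mean of the gene, as log2 (colour), for the 80 genes (rows) in order of complex. Fog1ki/ki columns are mostly blue, and which Fog1ki/ki array is the lowest differs from gene to gene; these differences shrink when quantile normalization is repeated (median -0.014).

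Complex II, succinate dehydrogenase, links the citric acid cycle to the respiratory chain, and its genes had the most negative median of the complexes, -0.23. With quantile normalization repeated that median was -0.145. Sdhd, a membrane anchor that helps to bind ubiquinone, measured 8.40, 8.62 and 8.64 in Fog1+/+ and 8.31, 8.18 and 8.29 in Fog1ki/ki. The genotypes did not overlap, although Fog1+/+ replicate 1 came within 0.09 of Fog1ki/ki replicate 1. Sdhd was not called (-0.29, SE 0.10, limma adjusted p = 0.353). Sdha, the flavoprotein, measured 10.58, 10.90 and 10.60 in Fog1+/+ and 10.53, 10.37 and 10.48 in Fog1ki/ki, again without overlap (-0.23, SE 0.11, limma adjusted p = 0.576). Without Fog1+/+ replicate 2, the highest array, its difference was -0.13.

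Sdhb, the iron-sulphur subunit, measured 10.06, 10.32 and 10.28 in Fog1+/+ and 10.09, 9.82 and 10.05 in Fog1ki/ki. Fog1+/+ replicate 1 lay among the Fog1ki/ki arrays, and Sdhb was not called (-0.23, SE 0.11, limma adjusted p = 0.581; -0.15 without Fog1ki/ki replicate 2). Sdhc, the other membrane anchor, measured 11.01, 10.44 and 10.94 in Fog1+/+ and 10.86, 10.65 and 10.89 in Fog1ki/ki. Fog1+/+ replicate 2 was the low array there, with a range of 0.57 that was the widest of any member in Fog1+/+. The difference of Sdhc was 0.003 (SE 0.16), and it turned to -0.175 without that array. In each of the 4 genes, replicate 2 was the lowest of the Fog1ki/ki arrays.

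Both oppositely oriented neighbours of complex II genes were measured. Timm8b, an import chaperone whose start lies 52 bases from that of Sdhd, measured 9.53, 9.67 and 9.66 in Fog1+/+ and 9.32, 9.55 and 9.48 in Fog1ki/ki. Fog1ki/ki replicate 2 was the highest of its group for Timm8b and the lowest for Sdhd, and the Timm8b difference was -0.17 (SE 0.10, limma adjusted p = 0.655). Ccdc127, whose start lies 77 bases from that of Sdha, had a difference of -0.08 (SE 0.14). Such a neighbour within 500 bases was found for 18 of the 65 members with a promoter window (27.7%), against 12.7% of all genes tested. The neighbour of Atp5j, at 148 bases, is Gabpa, which encodes the ETS factor named above. Gabpa measured 10.60, 10.53 and 10.46 in Fog1+/+ and 10.69, 10.62 and 10.33 in Fog1ki/ki, with overlap (0.017, SE 0.11).

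Complex III passes electrons from ubiquinol to cytochrome c. All 7 of its genes under the symbol rule had negative differences (median -0.11), but none passed at an adjusted or unadjusted p under 0.05. Cyc1, the cytochrome c1 subunit, lies outside the rule and was read with the electron carriers (-0.09, SE 0.09, limma adjusted p = 0.819). With quantile normalization repeated the median was -0.023, and Uqcrfs1 and Uqcrh turned positive (0.061 and 0.016). Uqcrfs1, the catalytic Rieske iron-sulphur protein, had a difference of -0.03 (SE 0.11, limma adjusted p = 0.963). The core proteins Uqcrc1 and Uqcrc2 had differences of -0.08 and -0.12. Uqcrh, the hinge protein, had the highest mean of the complex and measured 12.23, 12.21 and 12.24 in Fog1+/+ and 12.20, 12.10 and 12.18 in Fog1ki/ki (-0.07, SE 0.08).

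The small subunits of complex III differed in how far the Fog1ki/ki arrays stood from each other. Uqcr11 measured 9.36, 9.37 and 9.31 in Fog1+/+ and 9.39, 8.79 and 9.09 in Fog1ki/ki. Replicate 1 was at the Fog1+/+ level and replicate 2 was the low array, and Uqcr11 was not called (-0.26, SE 0.14, limma adjusted p = 0.637). Its difference was -0.107 without Fog1ki/ki replicate 2 and -0.407 without Fog1ki/ki replicate 1. Uqcrq had the same order, at 10.66, 10.72 and 10.71 in Fog1+/+ and 10.67, 10.20 and 10.56 in Fog1ki/ki (-0.22, SE 0.13). Uqcrh had a range of only 0.10 among the Fog1ki/ki arrays, and Uqcr10 one of 0.13, below its 0.18 in Fog1+/+.

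Complex IV, cytochrome c oxidase, was represented by subunits found in most tissues and by isoforms known from particular tissues. The 9 widely expressed genes (Ndufa4 among them) had a median difference of -0.11, and 8 of them had negative differences. Cox7a2 measured 11.51, 11.65 and 11.58 in Fog1+/+ and 11.42, 11.33 and 11.27 in Fog1ki/ki. All Fog1ki/ki arrays were lower, yet Cox7a2 was not called (-0.24, SE 0.09, limma adjusted p = 0.433). Cox6c, with the highest mean of all members, measured 12.84, 12.87 and 12.80 in Fog1+/+ and 12.80, 12.89 and 12.83 in Fog1ki/ki, a difference of 0.003 (95% interval -0.19 to 0.20).

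The remaining widely expressed genes lay between these. Cox5a had a difference of -0.22 (SE 0.12) and Cox7b one of -0.18 (SE 0.10). Cox8a was at -0.15, Cox4i1 at -0.11, Cox6b1 at -0.07, Cox6a1 at -0.06 and Ndufa4 at -0.04 on the log2 difference scale. Without Fog1ki/ki replicate 2 the difference of Cox8a was -0.033 and that of Cox4i1 -0.038. Cox6b1 and Cox6a1 turned to 0.009 and 0.026 with quantile normalization repeated. Cox4i1, Ndufa13 and Ndufb7 were the 3 members on the chromosome that carries Zfpm1, with differences of -0.11, -0.15 and 0.01. Cox7a2l, which helps to join complexes III and IV into supercomplexes, measured 11.19, 11.10 and 11.17 in Fog1+/+ and 11.19, 11.36 and 11.23 in Fog1ki/ki (0.11, SE 0.09, limma adjusted p = 0.783).

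The 7 tissue isoforms of complex IV had a median difference of 0.08. All but Cox6b2 had means below 10, where the median of all genes was 0.03, against -0.08 at 10 or above. The muscle isoform Cox7a1 and the testis isoform Cox7b2 each had a difference of 0.12, the muscle isoforms Cox6a2 and Cox8b differences of 0.13 and -0.08, and Cox4i2, known from lung, one of 0.03. None passed (limma adjusted p from 0.721 for Cox6a2 to 0.960 for Cox4i2). Cox6a2 was the 1 member whose Fog1ki/ki arrays all lay above, at 6.88, 6.91 and 6.89 against 6.85, 6.65 and 6.79. Cox7a1, Cox7b2, Cox8b, Cox8c and Ndufa4l2 lay below the array median on all 6 arrays, whereas 72 of the 80 members lay above the upper quartile on all 6.

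Cox6b2, known from testis, did not share the low level of the other isoforms. It measured 11.58, 11.56 and 11.63 in Fog1+/+ and 11.57, 11.02 and 11.65 in Fog1ki/ki, above the upper quartile on all arrays. Fog1ki/ki replicate 2 stood apart from the other 5 arrays. The difference was -0.18 (SE 0.16, limma adjusted p = 0.796), and 0.020 without that array. Whether this probe set also binds other transcripts was not tested.

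Complex V makes ATP in its F1 head, which a rotor ring and a stalk connect to the membrane. Of its 12 genes, 11 had negative differences, with a median of -0.05, and none passed at an adjusted or unadjusted p under 0.05. The median was 0.020 with quantile normalization repeated. The head subunits alpha (Atp5a1) and beta (Atp5b) had differences of -0.14 and -0.08, gamma (Atp5c1) one of -0.07, delta (Atp5d) one of -0.01 and epsilon (Atp5e) one of -0.003. Atp5b, which carries the catalytic sites, had overlapping genotypes, with a 95% interval of the difference from -0.29 to 0.12.

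The ring and stalk subunits of complex V had differences between -0.12 and 0.003. Atp5g3, which encodes the c subunit of the rotor ring, measured 12.02, 11.95 and 12.01 in Fog1+/+ and 12.02, 11.92 and 12.05 in Fog1ki/ki (0.003, 95% interval -0.20 to 0.20). The stalk genes Atp5o, Atp5pb and Atp5j had differences of -0.12, -0.06 and -0.02. Atp5j2, the f subunit, had the highest mean of the complex and a difference of -0.013 (SE 0.08). Atp5k, the e subunit, which takes part in the pairing of ATP synthases, was the member of the complex furthest from 0. It measured 11.80, 11.77 and 11.81 in Fog1+/+ and 11.59, 11.57 and 11.67 in Fog1ki/ki, without overlap (-0.18, SE 0.09, limma adjusted p = 0.556).

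The members varied little among the Fog1+/+ arrays and more among the Fog1ki/ki arrays. The median SD over members was 0.05 in Fog1+/+ and 0.10 in Fog1ki/ki, and over all genes 0.10 and 0.14. Over the genes at 10 or above it was 0.07 and 0.11. The Fog1ki/ki SD was the larger in 57 of 80 members, in 64.6% of all genes and in 70.1% of the genes at 10 or above. Averaged over the 80 members, Fog1+/+ replicates 1 to 3 stood at 10.29, 10.30 and 10.31, and their Fog1ki/ki counterparts at 10.23, 10.19 and 10.21. Each Fog1ki/ki array thus lay below each Fog1+/+ array. The genes at 10 or above separated in the same way. Their means were 10.88, 10.91 and 10.92 in Fog1+/+ and 10.84, 10.82 and 10.79 in Fog1ki/ki. Fog1ki/ki replicate 2 was the lowest of its genotype in 38 of 80 members, against 30.7% of all genes and 38.9% of the genes at 10 or above. By complex it was the lowest in 9 of 12 genes of complex V, in 5 of 7 of complex III and in 4 of 4 of complex II. Replicate 1 was the lowest as often in complex I (12 of 32 each) and complex IV (6 of 17 each), and among the 7 assembly factors replicate 3 was the lowest in 3 and replicate 2 in 2. Without this array the members' median difference was -0.06, that of complex IV was -0.022 and that of complex I -0.11.

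Genes that build and serve the respiratory chain were read from 6 further lists of measured genes. Over all genes, 0.397% were called lower and 0.376% higher. Of 40 assembly factors outside the symbol rule, 1 fell, 0 rose and 39 did not pass (median difference -0.10). The one that fell was Cox17, the copper chaperone that supplies Sco1 and Cox11 for the metal centres of complex IV. It measured 12.08, 12.14 and 12.14 in Fog1+/+ and 11.41, 11.58 and 11.55 in Fog1ki/ki. All Fog1ki/ki arrays lay below all Fog1+/+ arrays, and Cox17 was 1.52-fold lower in Fog1ki/ki (log2 difference -0.61, SE 0.09, limma adjusted p = 0.0210).

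The Cox17 difference stayed between -0.66 and -0.53 in 16 alternative settings. Its call was kept without Fog1ki/ki replicate 1 (limma adjusted p = 0.0456) and lost without any other single array. The limma adjusted p was 0.0918, 0.0958 and 0.121 without Fog1+/+ replicates 1, 2 and 3, and 0.0625 and 0.0564 without Fog1ki/ki replicates 2 and 3, and it was 0.274 without both replicates 3. Other assembly factors of complex IV and III had differences that did not pass. Cox10, which acts in the synthesis of haem a, measured 8.46, 8.54 and 8.47 in Fog1+/+ and 8.20, 7.94 and 8.21 in Fog1ki/ki (-0.37, SE 0.10, limma adjusted p = 0.222). Uqcc1, a complex III assembly factor, had a difference of -0.58 (SE 0.16, limma adjusted p = 0.216). Sdhaf2, which attaches the flavin to Sdha, measured 8.40, 8.42 and 8.43 in Fog1+/+ and 8.71, 8.75 and 8.69 in Fog1ki/ki (0.30, SE 0.08, limma adjusted p = 0.226). Cox10, Uqcc1 and Sdhaf2 were chosen after their values were seen.

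**Figure D4:**
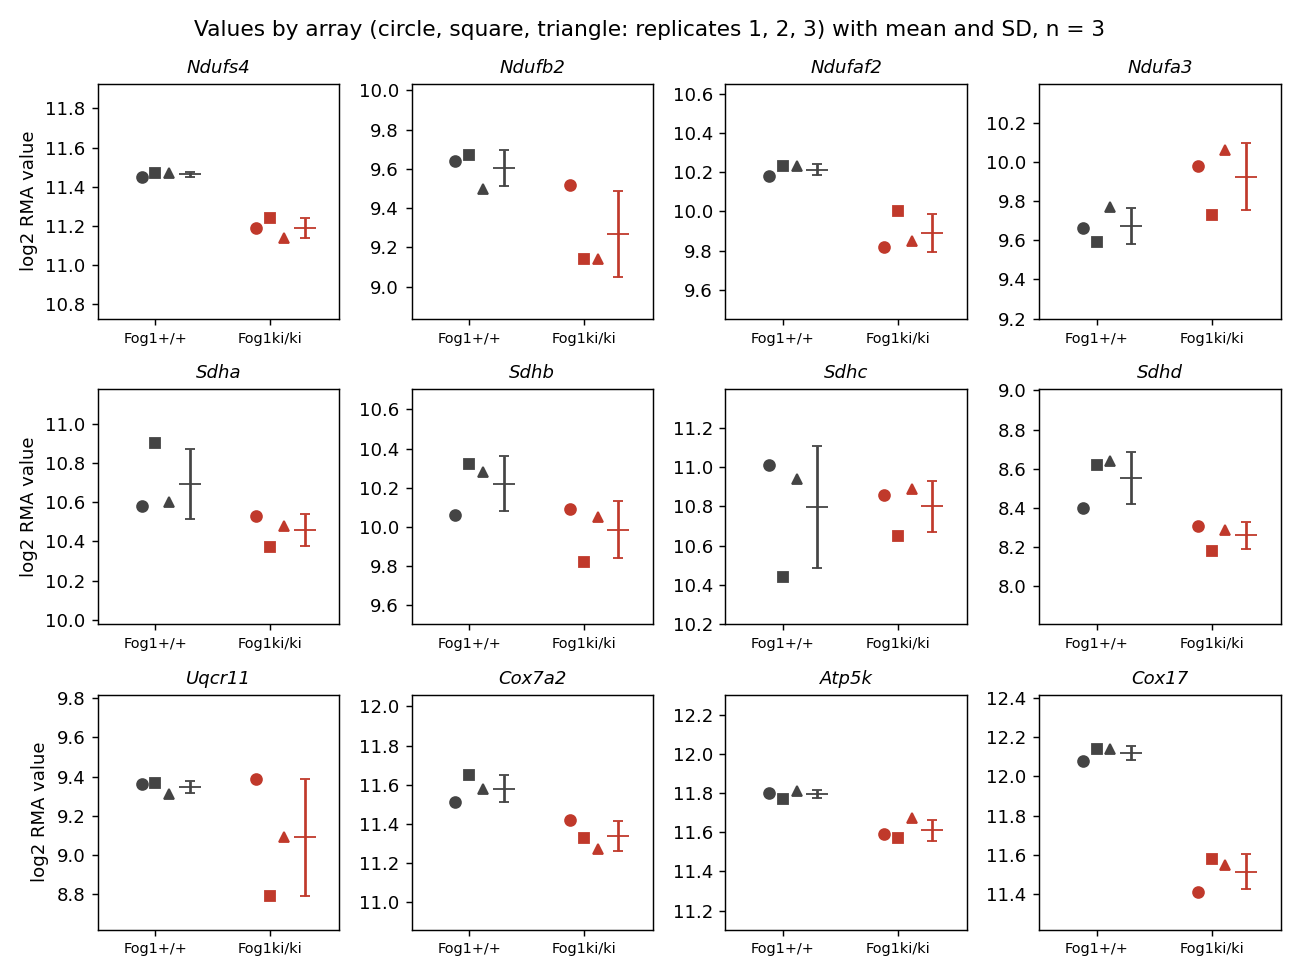
Log2 RMA value (vertical axis, 1.2 units in each panel) on each array for 11 oxidative phosphorylation genes and the assembly factor Cox17, by genotype, with the mean and SD of 3 arrays. Cox17 is the 1 gene shown that passed the test (12.12 ± 0.03 in Fog1+/+ against 11.51 ± 0.09 in Fog1ki/ki).

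None of the genes on the other 5 lists passed in limma, against 0.773% of all genes. Their medians were negative, as was the median of all genes at a level of 8 to 10, which was -0.063 (65.4% negative), with 408 of 3392 genes lower and 124 higher at an unadjusted p under 0.05. Over all genes 4.58% were lower and 4.99% higher at that p. With quantile normalization repeated, a comparison added after the data were seen, the median of the genes at 8 to 10 was 0.002. Those of the lists were then -0.066 for mitochondrial ribosomal proteins, -0.107 for import, -0.112 for antioxidant enzymes, -0.046 for electron carriers, -0.038 for regulators and -0.073 for the assembly factors. The 73 mitochondrial ribosomal proteins, which translate the subunits encoded in mitochondrial DNA, had a median difference of -0.13, with 11 lower and 0 higher at an unadjusted p under 0.05. Mrpl22 had the smallest p among them (-0.48, SE 0.14, limma adjusted p = 0.244). The 19 import genes had a median of -0.18, with 6 lower and 0 higher at an unadjusted p under 0.05. Timm44, which links the inner membrane channel to its motor, measured 9.16, 9.03 and 9.15 in Fog1+/+ and 8.80, 8.69 and 8.68 in Fog1ki/ki (-0.39, SE 0.09, limma adjusted p = 0.134).

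The 11 antioxidant enzymes had a median of -0.19 (2 lower, 0 higher at an unadjusted p under 0.05), with mitochondrial thioredoxin, Txn2, at -0.40 (SE 0.10, limma adjusted p = 0.194). The 22 electron carriers and ubiquinone synthesis genes had a median of -0.10 (2 lower, 0 higher). The glycerol phosphate dehydrogenase Gpd2 had the smallest p there (-0.53, SE 0.17, limma adjusted p = 0.301; -0.35 without Fog1ki/ki replicate 3). The 21 regulators of mitochondrial gene expression had a median of -0.06 (3 lower, 0 higher). Of all genes 4.58% were lower and 4.99% higher at that p, and of the 3392 genes at 8 to 10, 408 were lower. Hif1a was at -0.44 (SE 0.13, limma adjusted p = 0.248), the mitochondrial DNA packaging factor Tfam at -0.18 (SE 0.12), Nrf1 at 0.09 (SE 0.12) and the coactivator Ppargc1b at -0.017 (SE 0.11). Tfam, Nrf1 and Ppargc1b were named for their known roles, after their values were seen.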

How the data were processed

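The deposited values are log2 RMA values of 1-colour arrays, RMA being named in the submitters' processing notes and the log2 scale read from the values. The program that ran RMA and its options were not given in the sources used here. RNA was amplified before labelling, per the labels' protocols. Of 25668 probe sets, 20777 had 1 gene in the platform annotation, which can be old, 232 had several and 4659 none. The brightest probe set represented each of 19661 genes, with no filter on dim ones, and 0 of 19583 symbols matched to RefSeq had changed.

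The comparison used lmFit and eBayes of limma 3.58.1 (R 4.3.3) with a single genotype term, two-sided tests and Benjamini-Hochberg adjustment over all genes. Exact permutation was not used, because 0.1 is the smallest p that 3 arrays a genotype allow. The number of arrays limits the precision. The fit was checked on simulated data. Alternatives were quantile normalization repeated, median centring, leaving out dim genes, averaging or testing all probe sets of a gene, array weights, a variance prior that follows intensity, a replicate block, a low-Y term, other thresholds and leaving out arrays.

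Named genes were every member past the threshold, the 4 smallest p-values in each direction, the highest mean, largest and smallest difference per complex, complex II, isoform sets and the 3 lowest means, and on each further list the genes that passed or else the smallest p. Other genes were chosen after their values were seen. Members, lists and motifs were chosen with earlier results of these data known. Tables were made with Python 3.11.15 and pandas 2.3.3, intervals with scipy 1.17.1 and figures with matplotlib 3.10.9.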

Additional observations from a re-analysis of the deposited data

How the results depend on the processing

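No member passed in any of the 16 other fits or at an adjusted p under 0.1, and 8 did at an unadjusted p under 0.05, where 1882 of all genes did. With quantile normalization repeated, the median difference was -0.014 over all members and -0.014, -0.078, -0.145, -0.023, 0.009 and 0.020 for complex I, its assembly factors and complexes II, III, IV and V, and the differences turned to 0.042 for Atp5j2, -0.021 for Cox4i2, 0.026 for Cox6a1, 0.009 for Cox6b1, -0.005 for Ndufa4l2, 0.061 for Uqcrfs1 and 0.016 for Uqcrh. With arrays centred on their medians, 43 genes were called higher and 73 lower, against 74 and 78, the medians were -0.137 for the members, -0.150 for complex I, -0.113 for complex IV and -0.102 for complex V, and Atp5g3, Cox6c and Sdhc each turned to -0.050, Cox4i2 to -0.020 and Ndufa4l2 to -0.007. With array weights Atp5g3 turned to -0.010 and Sdhc to -0.026. Without both replicates 3, 24 genes passed, none of them on the further lists (0), the medians were -0.050 for the assembly factors and -0.035 for complex IV, and Atp5g3 was at -0.015, Cox6c at -0.010 and Uqcrfs1 at 0.050. With each array left out in turn, 60 to 134 genes passed (60, 83 and 60 without Fog1+/+ replicates 1, 2 and 3 and 82 without Fog1ki/ki replicate 2, against 152 with all arrays) and 0 to 1 on the further lists, and the medians ran from -0.102 to -0.056 for the members, -0.110 to -0.091 for complex I, -0.240 to -0.087 for its assembly factors, -0.302 to -0.169 for complex II, -0.145 to -0.082 for complex III, -0.065 to -0.022 for complex IV and -0.069 to -0.034 for complex V. Among single genes that turned, differences then ran from -0.023 to 0.042 for Atp5g3, -0.038 to 0.012 for Atp5j2, -0.050 to 0.088 for Cox4i2, -0.295 to 0.020 for Cox6b2, -0.022 to 0.023 for Cox6c, -0.175 to 0.110 for Sdhc and -0.103 to 0.072 for Uqcrfs1. The cause of these shifts was not tested. Of 30 named members, 19 kept their direction in every setting and 0 became called.

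The replicate number as a block gave 133 genes and 0 on the further lists, where Cox17 had a limma adjusted p of 0.0501. Same-numbered arrays had deviations that correlated at 0.07, -0.01 and 0.13, and not every array correlated best with its own number, so the numbers were not taken as pairs.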
